A study of Macrostomum lignano with 16 samples.

Results

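The free-living flatworm Macrostomum lignano is a simultaneous hermaphrodite: every adult has testes and ovaries at the same time and mates reciprocally. Allocation between the male and female function is known to change with the number of potential mates, and worms kept in larger groups are known for larger testes, whereas isolated worms have no partner from which to receive sperm. The comparison described here sets worms that lived in groups of 8 (octet) against worms that had lived alone and received a partner for the last 24 h only (joined). It covers 4 octet and 4 joined libraries of the 16 in the series and all 76437 transcripts of the deposited table, of which 40265 passed the filter on low values and were tested. Octet worms were kept together for 64 days. Joined worms spent the same period alone until 2 worms were put together for the final 24 h. The other libraries came from worms isolated throughout (4) and from worms with 1 constant partner (paired, 4), and they enter the fit and serve below as further levels. All groups were adults of strain DV1, 66 to 69 days old, fed on diatoms. Each library was made from RNA of a pool of whole worms, so p-values measure the spread between pools. In whole worms, fewer cells of a type and less RNA per cell cannot be told apart. The table gives transcripts by identifier without gene names, so no tissue markers could be checked and no function is assigned to any transcript.

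The 4 octet libraries held 7717578 to 10112451 estimated reads and the 4 joined libraries 7469250 to 9758050. On the first principal component of log2 CPM (reads per 1e6 after scaling) in these 8 libraries, which held 53.6% of the variance, octet libraries scored from 35.9 to 107 and joined libraries from -88.1 to -54.4. Octet replicate 3 lay nearest to the joined libraries and joined replicate 4 nearest to the octet libraries.

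Octet worms carried a changed transcriptome in both directions. By limma-voom at an adjusted p under 0.05, 34.9% of the 40265 tested transcripts were called, 18.6% as higher and 16.2% as lower in octet worms. The typical change was small. Among the 7495 higher transcripts the median fold was 1.78, and among the 6542 lower ones it was 1.95. A difference under 1.5-fold made up 19.2% of the higher calls and 12.5% of the lower calls. All 4 octet libraries lay on 1 side of all 4 joined libraries in 11127 of the 14037 calls, and in 32.4% of the tested transcripts whether called or not. Fold changes had a 95% interval of 0.51 log2 units to either side in the median, with 0.76 in the least abundant and 0.34 in the most abundant transcripts when the tested set was divided in 3 by abundance. The split by direction depended on scaling. With trimmed-mean (TMM) factors, as used here, octet worms were higher in 53.4% of the calls. With upper-quartile scaling they were higher in 45.6% of 14255 calls, and with median-ratio scaling in 54.0% of 14021. With total reads alone they were higher in 35.0% of 14742 calls. The median log2 fold change over all tested transcripts moved by -0.07 with upper-quartile scaling and by -0.18 with total reads alone.

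Direction went with abundance. When the tested transcripts were put in 10 bins of equal size by mean log2 CPM, the share called higher in octet worms was 5.24% in the least abundant bin and 47.0% in the most abundant one. The share called lower ran from 11.1% to 19.6% over the 10 bins and stood at 15.0% in the least abundant and 14.3% in the most abundant bin. The median log2 fold change of all transcripts in a bin, called or not, was -0.35 in the least abundant bin, -0.10 in bin 5 and 0.34 in the most abundant bin. A change of scaling shifts the medians of all bins, as it shifts the split of the calls. The filter asked for 1.26 CPM, before TMM scaling, in 4 of the 16 libraries. The least abundant bin had a median mean level of 1.09 CPM, so a transcript could enter it by its level in a single group. The part of the filter in the median of that bin was not tested. The median standard error fell from 0.45 in the least abundant to 0.15 in the most abundant bin, so smaller changes could pass the test there.

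**Figure D1:**
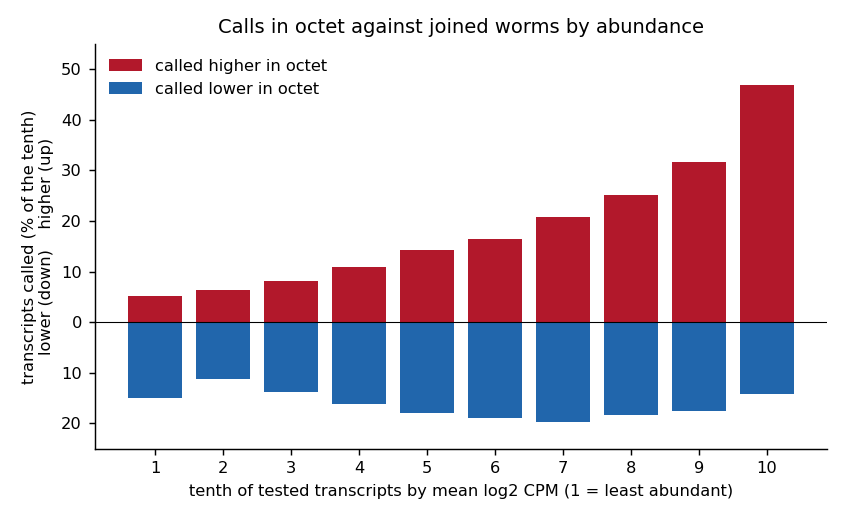
Share of transcripts called higher (red, upwards) or lower (blue, downwards) in octet than in joined worms, in percent of each of 10 equal bins of tested transcripts ordered by mean log2 CPM. The share called higher climbs from 5.24% to 47.0% and the share called lower stays between 11.1% and 19.6%.

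A tilt towards the most abundant bin was also seen in the reads themselves. Without the most abundant transcript, the transcripts of the top bin took 72.9% ± 1.12 of the reads in octet libraries and 69.1% ± 0.72 in joined libraries (SD, n = 4 each). The least abundant bin took 0.43% ± 0.04 in octet and 0.63% ± 0.04 in joined libraries. In both bins all octet libraries were apart from all joined libraries, with octet libraries at 71.7% to 74.0% in the top bin and at 0.39% to 0.47%, against 0.57% to 0.68%, in the bottom bin. All the bins below the top one took a smaller mean share in octet than in joined libraries. Bin 9 did so with 10.6% ± 0.31 in octet and 11.2% ± 0.27 in joined libraries, although its median log2 fold change was 0.13. In proportion to the joined share, the shortfall of octet libraries was largest in the least abundant bin and became smaller towards bin 9. In bin 5 the shares were 1.67% in octet and 2.06% in joined libraries. The shares were taken without TMM factors, so their sign in a bin can differ from that of the fold change. The bins were set by the mean over all 16 libraries, and these shares are given as a description.

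**Figure D2:**
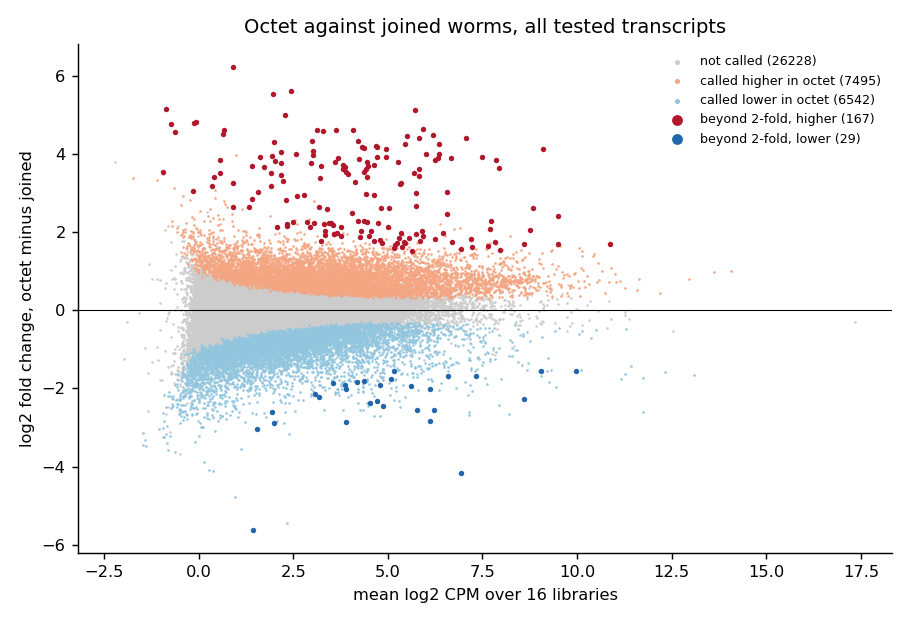
Log2 fold change of octet against joined worms on the y axis and mean log2 CPM over the 16 libraries on the x axis, 1 point per tested transcript. Pale points were called at an adjusted p under 0.05, and dark points differed by more than 2-fold in the test against that minimum, with 167 above and 29 below the joined level.

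More transcripts passed a test against a minimum fold as higher than as lower, and the lower count in particular depended on the fit. In that test, with a minimum of 2-fold (limma treat), 196 transcripts passed at an adjusted p under 0.05, or 0.487% of those tested, with 167 higher and 29 lower in octet worms. Fold estimates of 2 or more, by contrast, were found in 2426 of the higher and 3034 of the lower calls. The lower ones of these were scarcer, with a median mean level of 2.81 CPM and a median standard error of 0.36 log2 units, against 7.08 CPM and 0.24 for the higher ones. The part of this difference in abundance in the uneven count was not tested. The 167 higher transcripts, which carried 134 distinct numbers (transcripts sharing a number with a dot suffix are related in the assembly), had a median fold of 9.43 and a median level of 7.61 CPM in joined and 67.0 CPM in octet worms. The 29 lower transcripts, with 26 numbers, had a median fold of 4.45 and a median level of 53.3 CPM in joined and 10.8 CPM in octet worms. The count of 29 dropped to 19 when octet replicate 2 was left out and to 16 when octet replicate 4 was. It went up to 50 in the absence of paired replicate 4, to 49 in that of isolated replicate 3, and to 89 in a fit to the 8 libraries alone. A fit with the replicate number as a block, given below under the processing, raised the count of lower transcripts further. The count of higher transcripts ran from 119 without joined replicate 3 to 200 without octet replicate 3 when single libraries were left out.

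Few higher transcripts had fold changes in the middle of the upper range, and more lay beyond it. Among called transcripts with a mean log2 CPM of at least 3, the number in steps of 0.5 in log2 fold change declined from 863 between 1 and 1.5 to 129, 26, 10 and 8 in the next steps, and then went up again to 26 between 3.5 and 4 and 15 between 4 and 4.5. In all, 55 transcripts with 44 numbers were higher by a log2 fold change of at least 3, a limit chosen after the values were seen. On the lower side 1 transcript went past that limit, against 207 that lay between 1.5 and 3. The floor on abundance is a mean over all 16 libraries, so a rise in octet or paired worms helps a scarce transcript to pass it. With no floor, a choice added after the data were seen, the steps from 2.5 to 4.5 held 26, 23, 36 and 20 higher transcripts, and 95 higher and 26 lower transcripts went past 3. With a floor of 8 CPM on the mean of the group with the lower level, likewise added, these steps held 7, 5, 14 and 9, and 30 higher and 1 lower transcript went past 3. The second maximum was thus seen under all 3 floors but with few transcripts, and no test was run on it. The 55 had a median level of 8.98 CPM in joined and 137 CPM in octet worms, and the least abundant of them reached 35.3 CPM in octet worms.

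The other social groups, whose libraries did not enter the contrast, stood differently for the 55 transcripts beyond a log2 fold change of 3 and for smaller rises. The 55 transcripts stood above joined worms by a median of 3.90 log2 units in octet and 2.95 in paired worms, the latter with quartiles of 2.69 and 3.21. Their median difference between isolated and joined worms was -0.15, with quartiles of -0.33 and -0.01. The median difference between octet and paired worms in these was 1.01 on the log2 scale, a fold of 2.01. For the 155 higher transcripts between 1.5 and 2.5 the medians were 1.67 in octet, 0.99 in paired and 0.31 in isolated worms. For all 7495 higher transcripts they were 0.83, 0.44 and 0.18, and over all tested transcripts -0.04, -0.02 and -0.004. Thus the median of isolated worms lay slightly above joined worms for smaller rises and slightly below for the 55. These differences share the joined libraries, and the joined and octet levels of a called transcript were part of its choice. Paired and isolated libraries entered the filter and the shared estimate of the spread. For the 55 and the 155 they also entered the floor on abundance, which a high level in paired worms helps to pass. So these medians and those of single libraries below are a description.

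For the lower transcripts, too, paired worms stood between joined and octet worms in the median. Against joined worms the median log2 difference was -0.96 in octet, -0.43 in paired and -0.22 in isolated worms. In the 29 that passed the test against 2-fold it was -2.15, -1.09 and -0.21. Of the 167 higher transcripts, 148 were more than 2-fold above joined worms in paired worms by the fitted estimate and 2 in isolated worms, and 7 were more than 2-fold below joined worms in isolated worms. Of the 29 lower transcripts, 21 were more than 2-fold below joined worms in paired worms and 0 in isolated worms. Among all 7495 higher calls, 472 were more than 2-fold above joined worms in paired worms and 47 in isolated worms. Among all 6542 lower calls, 391 were more than 2-fold below joined worms in paired worms and 92 in isolated worms. The joined levels were part of the choice of these sets, so the counts are a description too.

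By library, the median of the 7495 higher transcripts lay at 0.96, 0.84, 0.65 and 0.91 log2 units above the joined mean in octet replicates 1 to 4. Paired replicates 1 to 4 lay at 0.40, 0.28, 0.45 and 0.68, and isolated replicates at 0.25, 0.12, 0.24 and 0.12. Octet replicate 3 was the lowest octet library and paired replicate 4, the highest paired library, lay slightly above it. In the 167 transcripts beyond 2-fold the octet libraries lay between 2.91 and 3.57, the paired libraries between 1.82 and 2.82 and the isolated libraries between -0.17 and 0.31.

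**Figure D3:**
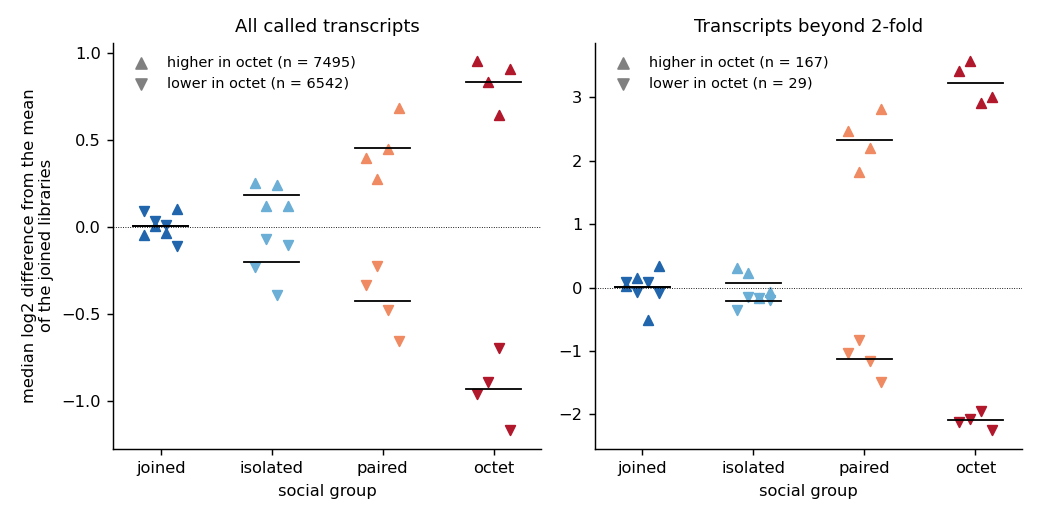
Median log2 difference of each library from the mean of the joined libraries (y axis), over the transcripts called higher (upward triangles) or lower (downward triangles) in octet than in joined worms, for all calls on the left and for those beyond 2-fold on the right. Each triangle is a library and each bar a group mean. The mean of the paired libraries lies between those of the joined and octet libraries in both panels, although on the left paired replicate 4 stands above octet replicate 3 for the higher transcripts, at 0.68 against 0.65.

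The transcripts called higher took 30.2% ± 2.14 of the reads in joined and 49.7% ± 2.60 in octet libraries (SD, n = 4 each). Those called lower took 16.1% to 21.8% in joined and 6.64% to 11.5% in octet libraries. Since the calls were chosen on the same libraries, these shares describe their weight and carry no test. The 167 transcripts beyond 2-fold made up 0.56% ± 0.06 of the reads in joined and 3.01% ± 0.30 in octet libraries. The 10 largest rises in mean CPM held 14.6% of the sum of all rises and the 100 largest 35.1%, in CPM scaled by TMM factors. The larger part of the sum thus lay outside the 100 largest rises.

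RNA815_9549.3 had the largest fold change among higher transcripts under the naming rule. It was at 453, 496, 276 and 355 CPM in octet replicates 1 to 4 and at 10.0, 16.3, 7.27 and 12.9 CPM in joined replicates 1 to 4. The lowest octet library was far above the highest joined library. Its log2 fold change was 5.12 with a standard error of 0.27 (limma-voom adjusted p = 6.99e-11), a 34.8-fold difference. Paired libraries ran from 98.7 to 221 CPM and isolated libraries from 8.92 to 16.7 CPM, so that all 4 paired libraries lay between the joined and the octet libraries and the isolated libraries overlapped the joined ones. The other 4 tested transcripts of its number were all called higher, with log2 fold changes of 3.76 to 5.61. Together the 5 went from 43.7 CPM in joined to 1121 CPM in octet worms. Reads of related transcripts were divided by estimation, so single members are less certain than their sum.

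RNA815_3057.4 had the largest gain in CPM among the higher transcripts under the naming rule. Octet replicates 1 to 4 were at 24692, 24745, 20769 and 30297 CPM and joined replicates 1 to 4 at 11084, 10628, 12259 and 16307 CPM. Its log2 fold change was 1.01 with a standard error of 0.20 (limma-voom adjusted p = 0.000588), a difference of 2.01-fold with no overlap between the groups. Isolated libraries, from 12050 to 20324 CPM, and paired libraries, from 11611 to 26106 CPM, overlapped the joined range, and paired replicate 4 lay within the octet range. Of the other 8 tested transcripts of its number, 5 were called higher, and all 8 had positive log2 fold changes of 0.55 to 1.15.

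RNA815_21158.1 had the largest fold change among lower transcripts under the naming rule, which asks for a mean log2 CPM of at least 3 (over all lower calls the highest fold was 48.9). It was at 27.6, 13.3, 30.6 and 59.7 CPM in octet replicates 1 to 4 and at 348, 403, 608 and 806 CPM in joined replicates 1 to 4. The log2 fold change was -4.16 with a standard error of 0.34 (limma-voom adjusted p = 1.43e-08). Here the paired libraries, at 14.2 to 35.6 CPM, lay within the octet range, and the isolated libraries, at 450 to 833 CPM, overlapped the joined ones. It was also the 1 lower transcript that passed a minimum of 4-fold, against 62 higher ones. The other transcript of its number was lower as well, with a log2 fold change of -2.84.

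RNA815_31.1 had the largest loss in CPM among the lower transcripts under the naming rule, which leaves out transcripts that were not called. Octet replicates 1 to 4 were at 1317, 1007, 2600 and 566 CPM and joined replicates at 9713, 7554, 9924 and 3616 CPM. The groups did not overlap, with joined replicate 4 and octet replicate 3 nearest to each other. Its log2 fold change was -2.60 with a standard error of 0.44 (limma-voom adjusted p = 0.000138), but it did not pass the test against 2-fold (adjusted p = 0.109). Isolated libraries ran from 2766 to 7826 CPM and paired libraries from 1186 to 6123 CPM, so that both overlapped the joined range and only the paired libraries reached into the octet range. The other 3 tested transcripts of its number were called lower too, with log2 fold changes of -2.68 to -2.28.

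RNA815_80.1, the most abundant transcript in the table, took 16.4%, 16.9%, 9.17% and 11.0% of the reads in octet replicates 1 to 4 and 21.4%, 19.4%, 13.4% and 18.4% in joined replicates 1 to 4. The groups overlapped. Its log2 fold change was -0.31 with a standard error of 0.22 and a 95% interval of -0.76 to 0.15, and it did not pass the test (limma-voom adjusted p = 0.291), although it did with scaling by total reads alone (adjusted p = 0.0391). Of the 5 other tested transcripts of its number, 2 were called higher and 1 lower, with log2 fold changes from -1.31 to 4.49.

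**Figure D4:**
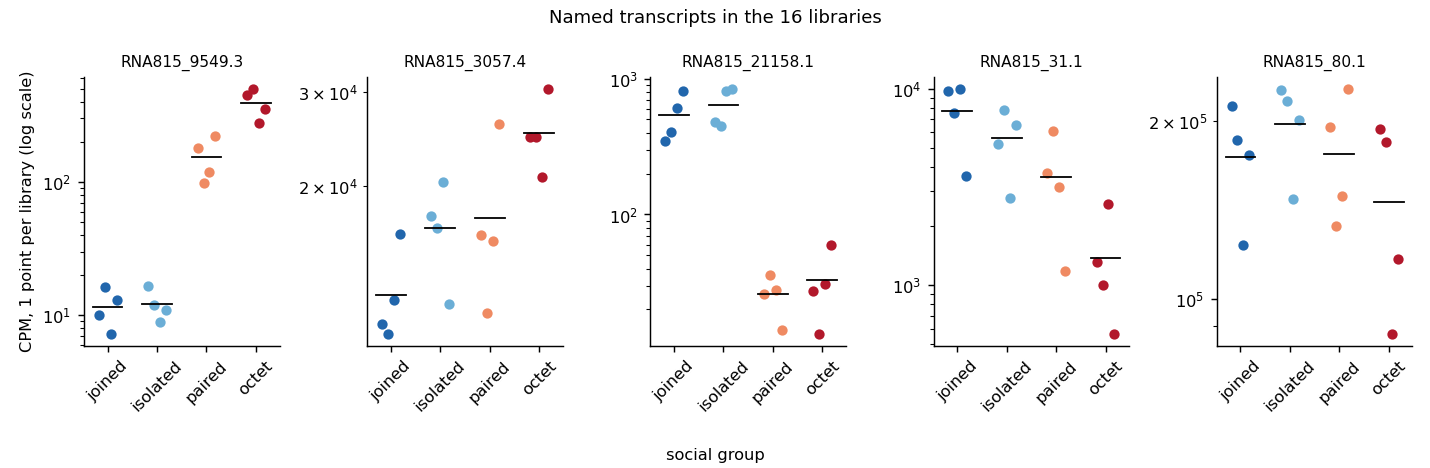
CPM of the 5 named transcripts on log scales, 1 point per library, in the 4 social groups, with bars at the group means. RNA815_9549.3 stands at 276 to 496 CPM in octet and 7.27 to 16.3 CPM in joined libraries, and RNA815_21158.1 at 13.3 to 59.7 against 348 to 806 CPM.

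Related transcripts were seldom called in opposite directions. Among 1073 numbers with at least 2 called members, 1037 (96.6%) had these in 1 direction and 36 (3.36%) in both. Among 4230 numbers with at least 2 tested transcripts, 586 had all members called higher and 296 all called lower. Another 699 had some members called higher and none lower, and 534 some lower and none higher. In 2079 no member was called. Transcripts that share a number were called in 36.6% of cases and those with a number of their own in 34.3%.

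Fewer transcripts were detected in octet worms. With each library thinned to the 7469187 reads of the smallest of the 8, at least 1 read was expected for 60386, 61662, 61884 and 59884 transcripts in octet replicates 1 to 4 and for 65282, 65234, 63913 and 64887 in joined replicates 1 to 4. All joined libraries lay above all octet libraries. The mean difference was -3875 transcripts (exact permutation test, two-sided p = 0.0286, the smallest that 4 against 4 can give). Adjusted over the 5 library measures tested, p was 0.143, so the difference did not pass the correction. Transcripts seen in 1 group only were scarce: 267 had reads in all 4 joined libraries and 0 in all 4 octet libraries, against 19 the other way. Their mean in the group with reads was at most 6.03 and 8.45 reads per library, and none of either set passed the filter for testing. With at least 3 reads asked for in each library of the group with reads, 8 and 1 remained.

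No difference in the concentration of reads in the most abundant transcripts passed the test. The 10 most abundant transcripts of each library held 21.1% ± 3.23 of the reads in octet and 26.1% ± 2.55 in joined worms (SD, n = 4 each; exact permutation p = 0.0857, adjusted 0.179). The 100 most abundant held 33.9% ± 3.09 and 37.8% ± 2.11 (n = 4 each; exact permutation p = 0.114, adjusted 0.179). The share of the most abundant transcript gave an exact permutation p of 0.143 (adjusted 0.179). The number of transcripts that together hold 50% of the reads was 508.5 ± 131 in octet and 471 ± 77.8 in joined worms (n = 4 each; exact permutation p = 0.686, adjusted 0.686). That last difference, 37.3, turned to -264 without RNA815_80.1, with an exact permutation p of 0.0286 and 0.0714 after adjustment, and to -20.9 without octet replicate 3.

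**Figure D5:**
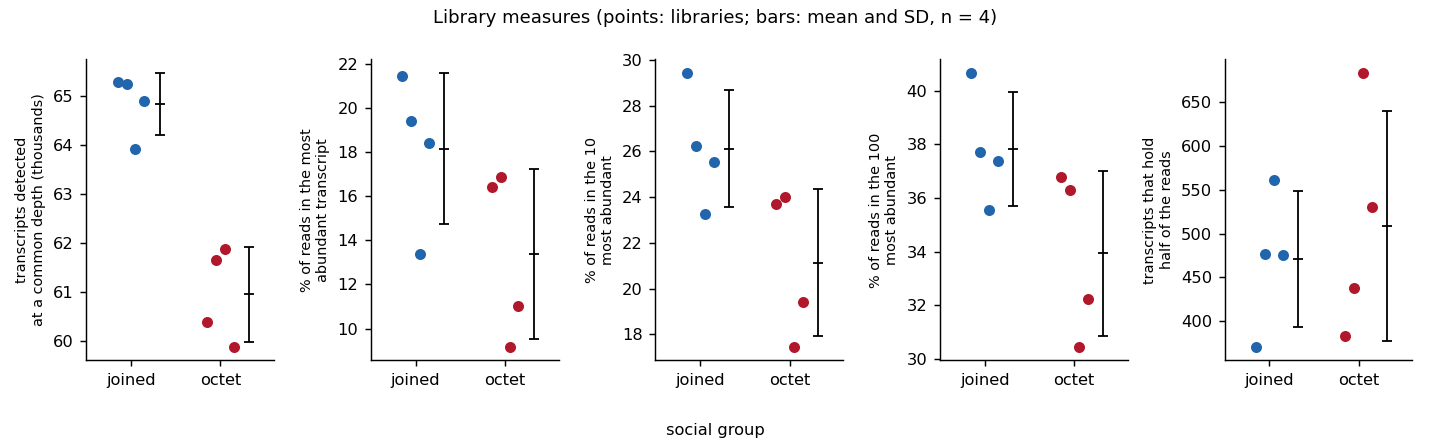
The 5 library measures in the 4 joined and 4 octet libraries, 1 point per library, with mean and SD beside the points. The axes do not start at 0. Detected transcripts, at 59884 to 61884 in octet and 63913 to 65282 in joined libraries, are the measure in which the groups do not overlap.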

How the data were processed

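Pools of whole worms were lysed in TRIzol and their mRNA went through the standard library preparation of Illumina, per the labels' protocols, and read as single-end reads of 100 bp. Bowtie 0.12.7 and RSEM 1.1.19 are named in the submitters' processing notes, and the reference MLRNA110815 per the file headers. The authors deposited estimated counts per transcript, unscaled, with a decimal comma; 23.8% of the values are not whole. Columns were assigned by the header given in each label.

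Estimated counts were rounded. Transcripts were kept with at least 1.26 CPM (10 reads in the library of median size) in 4 libraries and a sum of at least 15. TMM factors (trims of 30% and 5%) scaled the library sizes. limma-voom 3.58.1 in R 4.3.3 (pseudocount 0.5) was fitted to the 4 groups in all 16 libraries, with 12 residual and 10.3 prior degrees of freedom. No count model was run, because a check of units did not read values with decimal commas as counts. The commas were converted for the fit and do not in themselves prevent such a model. Tests were two-sided with Benjamini-Hochberg adjustment over all tested transcripts and a threshold of 0.05. Treat tested a minimum fold of 2. Fold changes of scarce transcripts are understated by the pseudocount. The scripts were tested on simulated counts.

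Library measures used exact permutation tests (SciPy 1.17.1), with thinning computed in closed form. Within groups, the 12 pairs of libraries differed by more than sampling noise (chi-square per degree of freedom 4.04 to 15.5). At most 2 transcripts per direction were named: among called transcripts whose mean log2 CPM was 3 or more and whose groups were apart, the one with the largest fold and the one with the largest difference in CPM, and in addition the most abundant transcript. The comparison, the lists and the rules were chosen with earlier results of these data known. Transcript sequences were not used, so GC content and length could not be checked. Alternatives covered scaling, filters, rounding, the test, weights, the libraries in the fit and the threshold, and a minimum of 4-fold, which was chosen after seeing the data.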

Additional observations from a re-analysis of the deposited data

How the results depend on the processing

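The direction of RNA815_9549.3, RNA815_3057.4, RNA815_21158.1 and RNA815_31.1 and their calls held in all 29 alternatives each. The number of calls, 14037, ran with single libraries left out from 10704 without octet replicate 4 to 15037 without paired replicate 4, and was 16491 with a quality weight per library. At a threshold of 0.01 it was 8040, with 4788 higher and 3252 lower, and numbers with members called in both directions fell to 11 and in 1 direction to 1400. Transcripts beyond 2-fold were 295 with a quality weight per library and 63 with a minimum of 4-fold (62 higher, 1 lower). The lower ones among them were 52 with scaling by total reads, 89 in a fit to the 8 libraries, 19 with limma-trend (pseudocount 2), 64 with quality weights, 16 at the threshold of 0.01, and 16 to 50 with single libraries left out. The cause was not tested. With the replicate number as a block, 358 transcripts were beyond 2-fold (218 higher, 140 lower) and 15504 were called. Same-numbered octet and joined libraries deviated together with correlations of 0.03, 0.11, 0.17 and 0.26. Each octet library correlated best with the joined library of its own number, whereas joined replicate 1 correlated best with octet replicate 3. The headers number the libraries in an order that runs through the 4 groups within each replicate number. The labels do not say what this order means or that the replicate numbers pair the libraries, so the main fit had no block. A pairing by number was not excluded. Transcripts with reads in 1 group only depend on how many libraries must be at 0: with single libraries left out they were 36 to 57 for octet and 393 to 503 for joined worms, and at least 3 reads left 1 and 8. The difference in transcripts holding 50% of the reads ran from -20.9 to 79.1 with single libraries left out and was -264 without RNA815_80.1. No p under 0.0571 can be had from 3 against 4 libraries. Depth limits the scarce transcripts, where the interval of a fold change was widest.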

Other observations

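With all 16 libraries thinned to 7302329 reads, the expected number of detected transcripts was 60796 ± 976 in octet, 62868 ± 914 in paired, 63107 ± 1790 in isolated and 64682 ± 639 in joined worms (SD, n = 4 each). Joined worms stood highest and octet worms lowest. The ranges of isolated and joined libraries overlapped, from 60505 to 64490 against 63761 to 65139.

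Octet pools varied more among themselves than joined pools. The within-group SD of log2 CPM was larger in octet than in joined worms in 58.4% of the tested transcripts, with a median ratio of 1.15. In the most abundant of 3 equal classes the median SD was 0.23 in octet and 0.19 in joined worms, with 0.25 in paired and 0.20 in isolated worms. No test was run on these values.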
